A study of Mus musculus with 33 samples.

Results

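The comparison set 3 tongues of mice that express Zac1 from both alleles against 3 wild type tongues, all taken at postnatal day 20 (P20). Zac1 is the older name of Plagl1. Of the 27825 genes listed for these 6 libraries, 12693 reached 1 RPM (reads scaled to the library's read total, log2 RPM 0) or more in at least 3 of them and were compared. The biallelic mice are described as Zac1o knockout mice, and the labels give 3 biological replicates per genotype. Both groups consist of tongue total RNA depleted of ribosomal RNA, extracted with TRIsure and made into strand-specific libraries with the dUTP method. The same study also profiled tongues of both genotypes at E13.5 and P0. The sources used here do not give strain, sex, litter, the number of tongues per library or the time of day of collection. The replicates are numbered 1 to 3 in each group, and the libraries are called wild type 1 to 3 and biallelic 1 to 3 here.

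Plagl1 encodes a zinc finger transcription factor. The gene is imprinted: the maternal copy carries DNA methylation set in the oocyte and is silent in most tissues, while the paternal copy is active. Zac1o is a transcript that runs across that region in the oocyte, and its loss leaves the maternal copy unmethylated and active. Plagl1 belongs to a group of imprinted genes, with Igf2, H19, Dlk1 and Meg3 among them, that are abundant in growing tissues of the fetus and decline after birth. The tongue at weaning age is mainly skeletal muscle under a keratinised epithelium, with connective tissue, vessels and nerves between the fibres.

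Upstream windows of 4 genes are shown because the results turn on their genes. Plagl1 is the altered gene, and Slc7a10 and Dlk1 had the highest log2 fold changes of the genes tested. Cry1 is a clock gene from a list that split in both directions, and no other clock gene's window was examined singly. They are RefSeq sequences of build GRCm38.p6 and end just before the gene start, for Plagl1 before its earlier start in the deposited table. The windows are chr10:13090582-13090690 on the plus strand for Plagl1, chr7:35186135-35186384 plus for Slc7a10, chr12:109452573-109452822 plus for Dlk1 and chr10:85185055-85185304 on the minus strand for Cry1. Capitals mark matches on either strand to the E-box CACGTG, which clock activators bind, in Plagl1 and Cry1, and to the palindrome GGGGCCCC, reported as a binding sequence of Zac1, in Slc7a10.
Plagl1: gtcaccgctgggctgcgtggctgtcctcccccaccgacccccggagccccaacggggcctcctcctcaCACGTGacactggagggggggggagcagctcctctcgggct
Slc7a10: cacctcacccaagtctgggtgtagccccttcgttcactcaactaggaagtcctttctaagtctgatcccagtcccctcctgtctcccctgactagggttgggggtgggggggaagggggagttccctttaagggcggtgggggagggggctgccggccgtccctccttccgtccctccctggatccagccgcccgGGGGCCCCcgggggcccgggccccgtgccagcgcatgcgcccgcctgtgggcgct
Dlk1: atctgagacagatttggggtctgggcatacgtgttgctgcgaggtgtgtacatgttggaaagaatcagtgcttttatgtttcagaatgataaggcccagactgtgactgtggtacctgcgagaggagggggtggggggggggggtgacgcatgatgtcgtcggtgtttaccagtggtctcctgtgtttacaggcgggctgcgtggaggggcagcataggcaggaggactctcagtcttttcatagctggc
Cry1: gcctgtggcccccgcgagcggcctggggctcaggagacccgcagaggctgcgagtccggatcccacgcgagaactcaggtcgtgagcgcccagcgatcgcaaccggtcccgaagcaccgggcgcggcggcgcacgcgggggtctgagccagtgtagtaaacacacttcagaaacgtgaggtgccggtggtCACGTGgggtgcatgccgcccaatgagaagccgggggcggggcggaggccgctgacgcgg
In RefSeq's 32851 windows of 250 bases before a gene start, CACGTG occurred in 6.02% and GGGGCCCC in 0.889%. AGGTCA, a core sequence bound by nuclear receptors such as Nr1d1, was searched on both strands too and occurred in 14.0% of all windows and in none of the 4 shown. The searched motifs do not overlap one another in these windows.

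Libraries held 45370175 to 58251242 reads behind the RPM values, of which listed genes took 36.65% to 37.64%. A count of 3 reads equalled 0.0515 to 0.0661 RPM, a limit for counting error only. Muscle markers (Acta1 1318 to 2736 RPM), epithelial keratins (Krt13 2313 to 4091 RPM), endothelial, fibroblast and Schwann cell markers were present in all 6 libraries. Cartilage markers stayed under 1 RPM. The fat cell markers Adipoq, Plin1 and Cidec were at 0.378 RPM or less in every library. Wild type 2 held Dcpp1, a salivary gland transcript, at 18.8 RPM, while the other 5 libraries were at or below 0.0198 RPM. Biallelic 3 stood apart on the first principal component (60.8% of the variance), at -39.8 against -10.1 to 22.4 for the others. Genes that set it apart included Myh2, a myosin of oxidative fast fibres (304.1 RPM against 13.9 to 54.2), and the hair shaft gene Dsg4 (0.245 RPM against 2.64 to 5.93). Many results below are therefore also given without biallelic 3, and a value given alone uses all 6 libraries.

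Plagl1 itself was higher in every biallelic tongue. The gene (ENSMUSG00000019817, chromosome 10, 13090691 to 13131694, plus strand) was at 23.1, 25.0 and 30.5 RPM in the wild type and at 77.1, 50.9 and 66.7 RPM in the biallelic libraries. The groups do not overlap, and the lowest biallelic value is well above the highest wild type value. Its log2 fold change was 1.30 (SE 0.18), and 1.27 without biallelic 3. An exact permutation test of the gene alone gave a two-sided p of 0.1, the smallest that 3 against 3 libraries allow. The related zinc finger genes Plag1 (log2 fold change -0.02, SE 0.29) and Plagl2 (-0.04, SE 0.22) had overlapping groups.

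Over all genes, no difference passed the threshold of 0.05 on p-values adjusted by the Benjamini-Hochberg method, Plagl1 included. Limma called 0 of 12693 genes (0.0%), with a smallest adjusted p of 1, and 286 genes (2.25%) had an unadjusted p under 0.05 where uniform p-values would give 635. Among these 286 genes 140 were higher and 146 lower in the biallelic tongues. Limma-voom on the whole reads also called 0, with 291 at an unadjusted p under 0.05. Genes are therefore called higher or lower below from their values, and none of them passed the test. Every biallelic library lay above every wild type library for 399 genes (3.14%) and below for 475 genes (3.74%). Without biallelic 3 these counts were 889 genes (7.0%) and 1199 genes (9.45%). They include the genes separated with all 6 libraries, since leaving out a library cannot make separate groups overlap. Of the 399 and 475 genes, 5 higher and 7 lower ones reached 1 RPM in one group only. They passed the filter through that group, which fixes that their groups do not overlap. These shares are the background for the counts within gene groups. Of all genes tested 44.7% had higher means in the biallelic tongues (median log2 fold change -0.02), against 53.5% without biallelic 3.

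**Figure D1:**
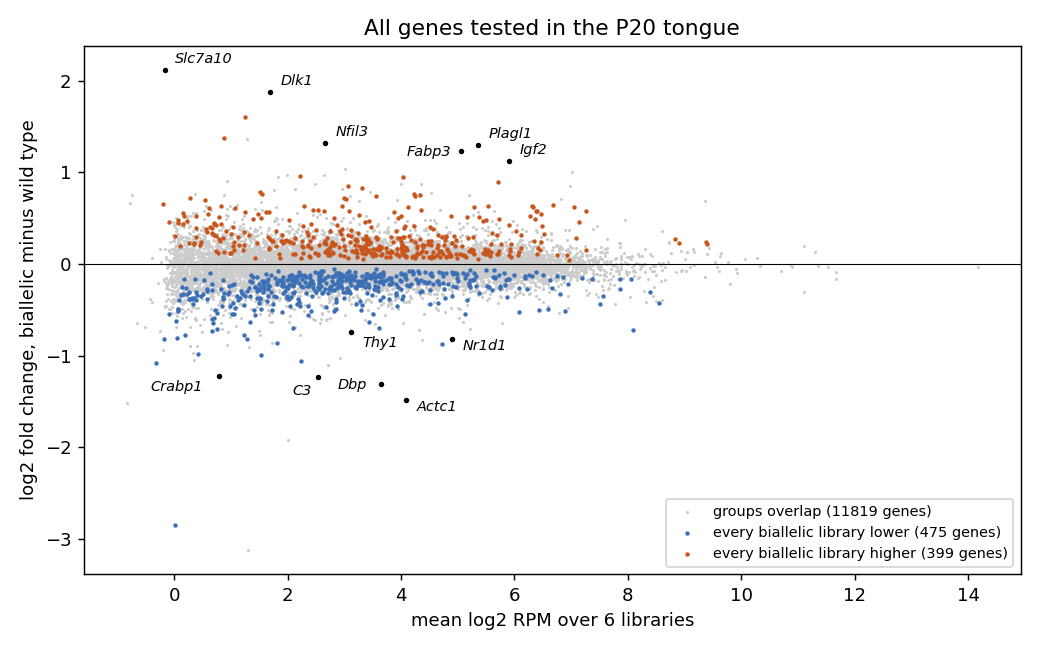
Log2 fold change (biallelic minus wild type) against mean log2 RPM over the 6 P20 libraries for the 12693 genes tested. Orange points are the 399 genes with every biallelic library above every wild type library, blue points the 475 with every one below, grey points overlap, and black points are the named genes, with Slc7a10 highest at 2.12.

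After Plagl1, the higher genes of smallest p held an amino acid transporter, an imprinted growth regulator and several genes of lipid handling. Slc7a10, which carries small neutral amino acids such as serine (its GGGGCCCC window is shown above), was at 0.414, 0.498 and 0.375 RPM in wild type and 1.84, 1.17 and 2.96 RPM in biallelic tongues. The level was low, with 17 to 157 reads per library. The gene passed the filter of 1 RPM in 3 libraries only through the biallelic group, so that its groups had to differ, and the separation is a description. Its log2 fold change was 2.12 (SE 0.36), 1.78 without biallelic 3 and 1.02 on the log2(RPM + 1) scale, which damps low levels. Of the 24 transporters of neutral and related amino acids tested, 12 were higher and 12 lower (median -0.00). Besides Slc7a10, Slc38a2, a sodium-coupled transporter of small neutral amino acids (0.28), and Slc43a2, a carrier of large ones (0.29, and 0.15 without biallelic 3), had groups that do not overlap, against 3.14% of all genes.

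Cyr61, a matricellular protein gene, had 5.80, 6.75 and 6.55 RPM in wild type and 9.72, 9.65 and 12.0 RPM in biallelic tongues. The cholesterol exporter gene Abca1 went from 61.6, 69.7 and 76.9 RPM to 110.9, 96.3 and 103.1 RPM between the same groups. Both are separated by genotype with little spread inside a group (log2 fold changes 0.71, SE 0.12, and 0.58, SE 0.12). The other sterol genes did not follow Abca1. Of 23 sterol synthesis and efflux genes tested, 8 were higher and 15 lower (median -0.13), or 15 and 8 without biallelic 3 (0.02). Abca1 was the only one with groups that do not overlap, 1 of 23 against 3.14% of all genes. Others of the 15 higher genes with smallest p were Vsig2 (0.59), Fabp3-ps1 (1.61), the triglyceride lipase gene Pnpla2 (0.62), Snai3 (0.76), Nfil3 (1.32), 8430408G22Rik (0.72), the apoptosis gene Bmf (0.58), the G protein regulator gene Rgs2 (0.64) and the endothelial gene Apold1 (0.96). Fabp3-ps1 is a pseudogene copy of Fabp3, and reads of such a pair can be split between them, so its value is uncertain.

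**Figure D2:**
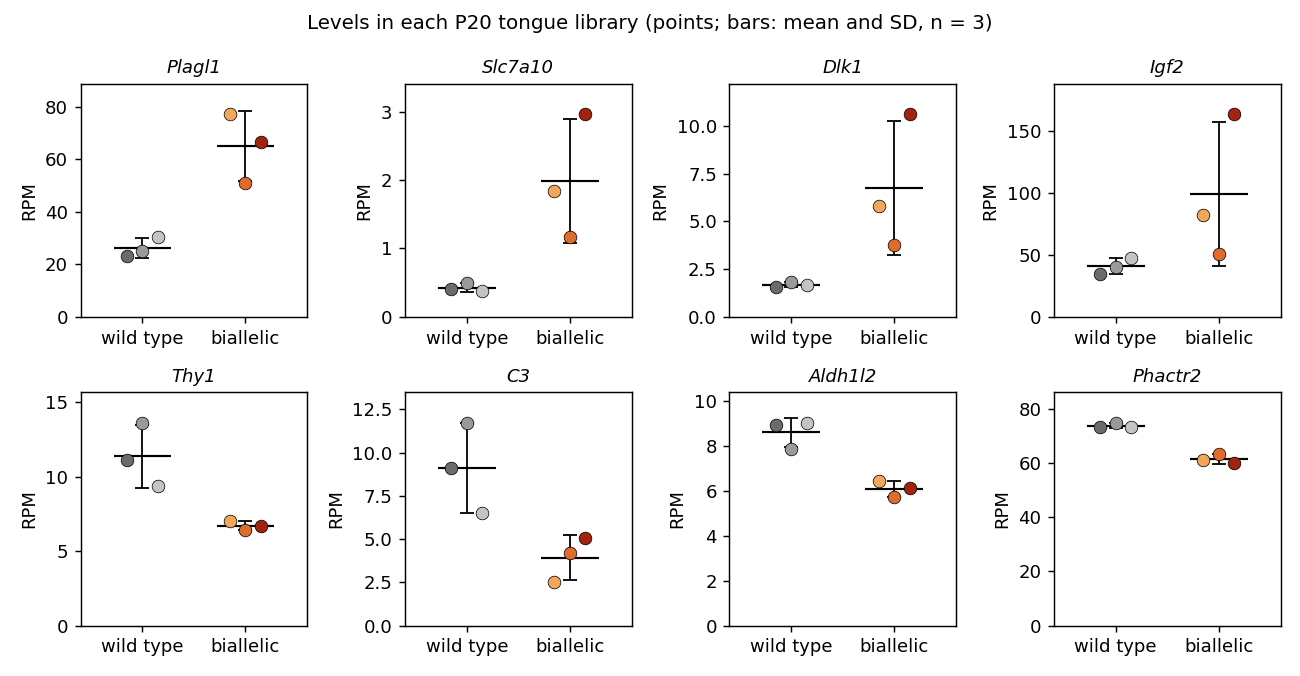
RPM of 8 genes in each P20 library, with points for replicates 1 to 3 from left to right, and the mean and SD of each group (n = 3). Plagl1, Slc7a10, Dlk1 and Igf2 have every biallelic point above every wild type point, with biallelic 3 highest for the last 3 of them, and Thy1, C3, Aldh1l2 and Phactr2 have every biallelic point below.

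The lower genes of smallest p included surface, complement and matrix genes of connective tissue and the mitochondrial folate enzyme genes Aldh1l2 and Mthfd1l. Thy1, a surface glycoprotein of fibroblasts and neurons, was at 11.1, 13.6 and 9.39 RPM in wild type and 7.04, 6.42 and 6.68 RPM in biallelic tongues. C3, the central complement component, was at 9.14, 11.7 and 6.50 RPM against 2.54, 4.19 and 5.08 RPM. Neither gene overlaps between genotypes, and wild type 3 is the wild type library nearest to the biallelic ones for both. The log2 fold change was -0.75 (SE 0.15) for Thy1 and -1.23 (SE 0.30) for C3. The eosinophil chemokine gene Ccl11 (-0.86), the collagen prolyl hydroxylase subunit gene P4ha3 (-0.81), the fibulin gene Efemp1 (-0.63), the signalling phospholipase gene Plcg2 (-0.54), the secretory granule gene Scg3 (-0.78), the retinoic acid binding protein gene Crabp1 (-1.23), the growth factor gene Clec11a (-0.98), Susd1 (-0.50) and Zfp946 (-0.53) were also lower in all 3 biallelic libraries. So was mmu-mir-689-2 (-1.07), a microRNA locus whose name implies another copy, so its reads may be shared between copies.

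Fatty acid uptake and oxidation genes had the highest median of the 41 gene lists examined when all 6 libraries were used. Without biallelic 3 their median of 0.27 was below the 0.38 of immediate early and stress genes. This pathway brings fatty acids into muscle (Cd36, Fabp3), carries them into mitochondria (Cpt2, Slc25a20) and shortens them there (the acyl-CoA dehydrogenases, the trifunctional protein subunits Hadha and Hadhb), passing electrons on through Etfdh. Of 32 listed genes 31 were tested. Of these, 29 were higher on average in the biallelic group. The median log2 fold change was 0.49, against -0.02 for all genes, and no member passed the test. The groups did not overlap for 16 of them, all higher, against 3.14% of all genes, and 11 had an unadjusted p under 0.05 against 2.25%. Without biallelic 3, 29 were still higher and 17 did not overlap, against 7.0% of all genes. The mean over the list was 4.72, 4.55 and 4.70 log2 RPM in wild type and 4.87, 4.99 and 5.65 in biallelic tongues. Biallelic 1 and 2 thus sit just above the wild type libraries and biallelic 3 far above.

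Acadvl, the very long chain acyl-CoA dehydrogenase, was at 76.8, 58.7 and 71.0 RPM in wild type and 85.7, 96.7 and 127.6 RPM in biallelic tongues. The medium chain enzyme gene Acadm was at 68.0, 55.4 and 72.0 RPM against 75.8, 88.6 and 120.8 RPM. For both the biallelic libraries lie above all wild type ones, by a small step in biallelic 1 and a large one in biallelic 3. The log2 fold change was 0.58 (SE 0.17) for Acadvl and 0.53 (SE 0.19) for Acadm, or 0.41 and 0.34 without biallelic 3. Fabp3, the fatty acid binding protein of muscle and heart, was at 22.8, 16.5 and 26.9 RPM against 35.2, 34.6 and 108.4 RPM, a log2 fold change of 1.24 (SE 0.44) with biallelic 3 and 0.69 without it. Ech1, an auxiliary enzyme for unsaturated fatty acids, went the same way without overlap (0.90, SE 0.31, and 0.62 without biallelic 3). So did Etfdh (0.51, SE 0.17, and 0.34 without it) and Hadha (0.63, SE 0.23, and 0.38 without it).

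Not all members followed. Cpt1a, the carnitine palmitoyltransferase isoform of liver, was at 29.9, 28.3 and 30.8 RPM in wild type and 25.3, 28.9 and 33.5 RPM in biallelic tongues, with overlapping groups (-0.03, SE 0.12). Pdk4, which restrains glucose oxidation when fat is burned, was at 117.4, 107.0 and 60.0 RPM in wild type and 112.7, 104.0 and 516.9 RPM in biallelic tongues. Its high value belongs to biallelic 3 alone, and its log2 fold change of 1.0 (SE 0.61) was 0.25 without that library.

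**Figure D3:**
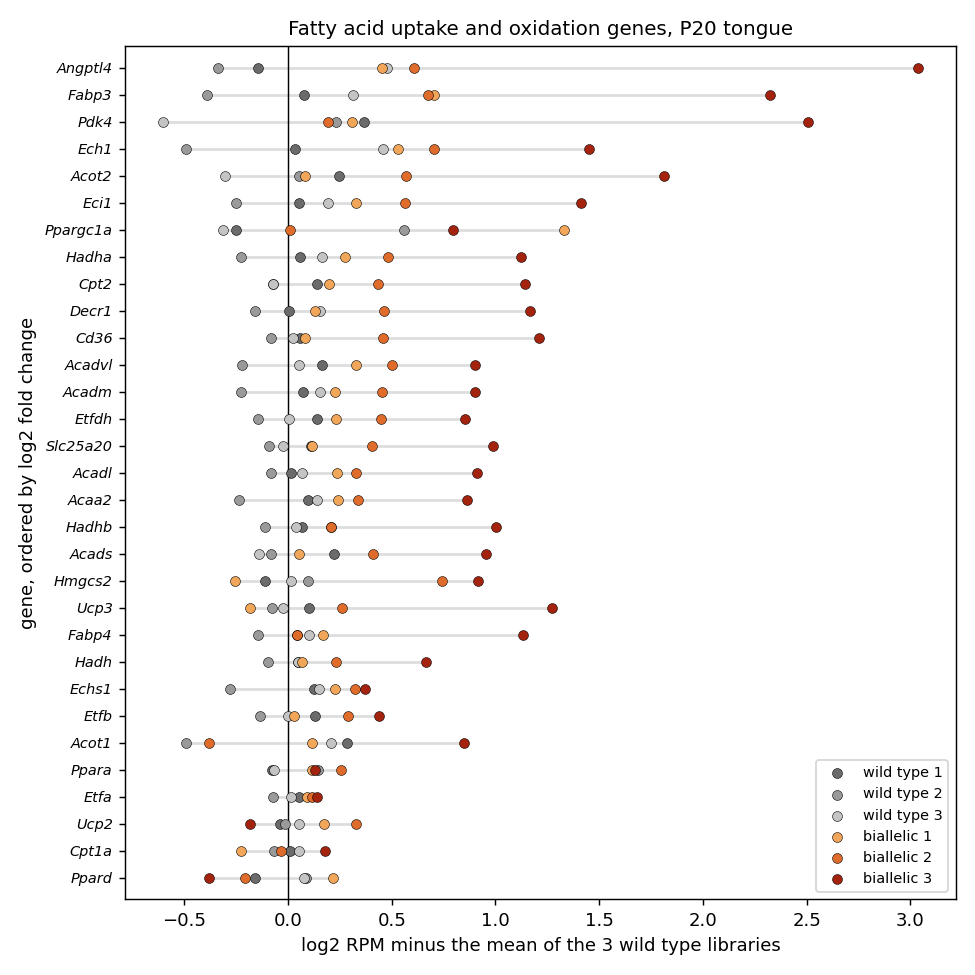
Log2 RPM of the 31 tested fatty acid uptake and oxidation genes in each library, minus the mean of the 3 wild type libraries. Biallelic 3 (dark red) is the farthest right for most genes, biallelic 1 and 2 (orange) mostly lie right of the grey wild type points, and Cpt1a and Ppard lie near the bottom with points on both sides of 0.

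Other muscle and mitochondrial genes did not share this pattern in the same way. Of 37 respiratory chain genes 36 had higher means (median 0.13), but the groups overlapped for all 37, and 21 were higher without biallelic 3 (median 0.03). The 19 fast muscle contractile genes had a median of -0.03, with 6 higher. Their mean level was lowest in biallelic 1 (7.24 log2 RPM) and highest in biallelic 3 (8.37). Their median was -0.20 with 3 higher when biallelic 3 was left out, and 0.13 without biallelic 1. Endothelial genes were also mostly higher, 20 of 21 with a median of 0.28, or 16 of 21 and 0.13 without biallelic 3. Among them the transcription factor gene Sox17 (0.42), the secreted factor gene Egfl7 (0.63), the junction gene Esam (0.41) and the receptor gene Tie1 (0.38) had groups that do not overlap, 4 of 21 against 3.14% of genes. Leaving out biallelic 3 gave 0.35 for Sox17, 0.35 for Egfl7, 0.23 for Esam and 0.15 for Tie1. Without that library 4 were higher and 1, the transcription factor gene Sox7 (-0.23), was lower without overlap, against 7.0% and 9.45% of genes. Cldn5 (0.97, and 0.63 without biallelic 3) and S1pr1 (0.42, and 0.28 without it) overlapped. In bulk tissue a change in the number of cells of a type and a change of RNA per cell cannot be told apart, and the part of muscle fibre and endothelial content in the fatty acid gene values was not tested.

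Lipid store genes leaned the same way. Pnpla2, the lipase that opens triglyceride breakdown, was at 28.5, 34.8 and 32.0 RPM in wild type and 40.5, 55.1 and 51.7 RPM in biallelic tongues. Lipe, which takes the next step, was at 11.4, 10.9 and 14.2 RPM against 15.6, 16.9 and 21.6 RPM. Both separate the genotypes (log2 fold changes 0.62, SE 0.14, and 0.56, SE 0.16). Without biallelic 3 the log2 fold changes were 0.58 and 0.43. Among 13 lipolysis and lipid droplet genes the median was 0.27 with 12 higher, and 0.13 with 10 higher when biallelic 3 was left out. Cidea (0.47), Plin5 (0.69, and 0.28 without biallelic 3) and Plin4 (0.37) are further members with overlapping groups. Of 20 tested adipocyte list genes 15 were higher (median 0.29, and 0.10 without biallelic 3). This list shares Pnpla2, Lipe, Cidea and Plin4 with the lipolysis list, and Cd36 and Fabp4 with the fatty acid list. The counts of these lists are therefore not independent. The defining fat cell markers Adipoq, Plin1 and Cidec were near 0 as given above, highest in biallelic 3 at 0.189, 0.378 and 0.0944 RPM, and were not among the genes tested.

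The fatty acid genes were not higher at the earlier stages. At P0 5 of 31 were higher in the biallelic tongues (median -0.17), and at E13.5 7 of the 25 tested there (median -0.09). The low share at P0 was not particular to them. There 0 of 37 respiratory chain genes (median -0.19) and 0 of 19 fast muscle contractile genes (-0.27) were higher. Of 13 lipolysis and lipid droplet genes 1 was higher (-0.19). Slow and developmental contractile genes went the other way, with 8 of 14 higher (0.15). Fabp3 was at -0.69 at P0 and 1.24 at P20. The difference between P20 and P0 in a joint fit of the 18 tongue libraries was 0.69 (SE 0.25) for Acadvl, 1.06 (SE 0.38) for Ech1 and 0.69 (SE 0.26) for Acadm, with an adjusted p of 1 for each in limma.

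Clock genes split by genotype in both directions. The clock is a loop in which Arntl with Clock or Npas2 drives Per, Cry, Nr1d and Dbp genes through E-boxes, Per and Cry proteins block that drive, and Nr1d receptors repress Arntl and Nfil3, so that these sets peak at different times of day. Of 17 tested clock genes, 3 were higher and 4 lower with groups that do not overlap, against 3.14% and 3.74% of all genes. Of the 17, 8 had an unadjusted p under 0.05 against 2.25%, and none passed the adjusted threshold. Without biallelic 3, 4 were higher and 4 lower without overlap, against 7.0% and 9.45%. The list median was -0.04, since both directions are present.

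On the repressor side of the loop, Nr1d1, which encodes the receptor Rev-erb alpha, was at 41.2, 48.1 and 31.4 RPM in wild type and 17.7, 27.8 and 22.9 RPM in biallelic tongues. Dbp, an output transcription factor gene, was at 25.3, 29.3 and 10.5 RPM against 5.10, 9.93 and 10.1 RPM. Neither gene overlaps, but wild type 3 lies close to the biallelic values for Dbp. The log2 fold change was -0.82 (SE 0.21) for Nr1d1 and -1.31 (SE 0.43) for Dbp. Nr1d2 (-0.52) and Hlf (-0.39), close relatives of Nr1d1 and Dbp, were lower without overlap too.

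In the opposite direction, Nfil3, a repressor that competes with Dbp, was at 3.45, 2.71 and 6.81 RPM in wild type and 12.2, 8.75 and 9.37 RPM in biallelic tongues. Cry1, whose window with an E-box is shown above, was at 5.12, 6.85 and 7.01 RPM against 12.5, 8.54 and 8.55 RPM. For both genes the biallelic values are all above wild type ones, and wild type 3 is the highest wild type library for each. Log2 fold changes were 1.32 (SE 0.33) for Nfil3 and 0.63 (SE 0.19) for Cry1.

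Arntl, the core activator gene, was at 12.7, 10.8 and 24.7 RPM in wild type and 34.1, 23.4 and 26.0 RPM in biallelic tongues, so that wild type 3 falls among the biallelic libraries (0.87, SE 0.31). Npas2 showed the same order, with wild type 3 at 33.7 RPM and the other wild type libraries at 12.8 and 12.9 RPM, against 21.6 to 42.4 RPM in biallelic tongues (0.78, SE 0.41). Wild type 3 is thus on the biallelic side of the wild type libraries for Nr1d1, Dbp, Nfil3, Arntl and Npas2. Without biallelic 3 the values were close to those with it, for example 1.37 for Nfil3, -0.84 for Nr1d1 and -1.48 for Dbp. The sources used here give no collection time, so genotype and time of day cannot be told apart for these genes. At P0 the log2 fold changes were -0.26 for Nfil3, -0.16 for Nr1d1 and -0.22 for Dbp.

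**Figure D4:**
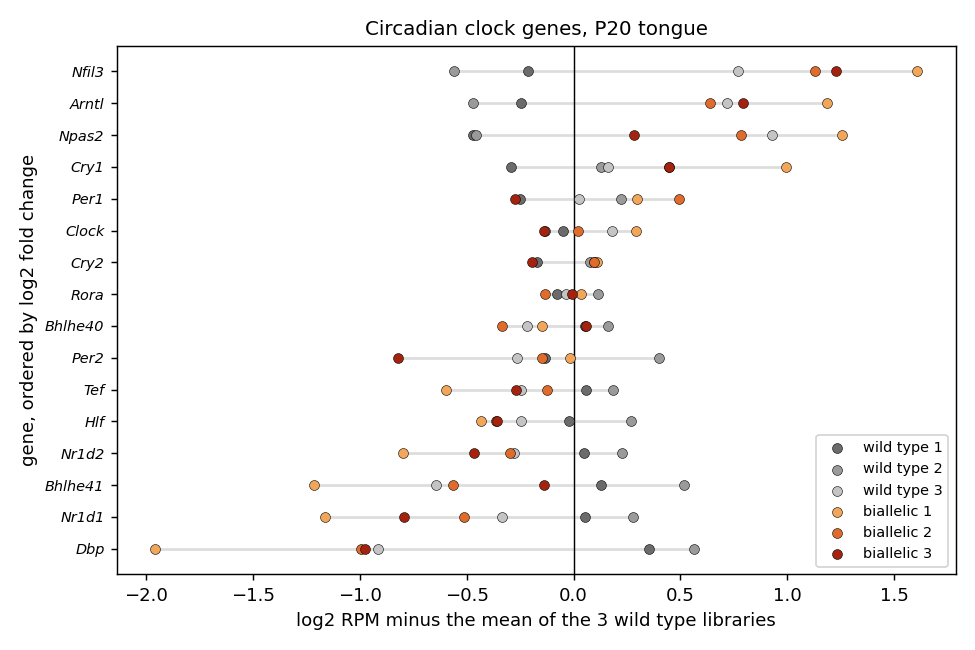
Log2 RPM of 16 of the 17 tested clock genes in each library, minus the mean of the 3 wild type libraries. The orange and red biallelic points lie to the right for Nfil3 and Cry1 and to the left for Dbp, Nr1d1, Nr1d2 and Hlf, while wild type 3 (light grey) lies beside the biallelic points for Arntl, Npas2 and Dbp.

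Several imprinted genes other than Plagl1 were higher in the biallelic tongues. Of 74 listed imprinted genes 44 were tested, and 32 of them were higher on average (median 0.10), or 27 (median 0.03) without biallelic 3. Leaving out wild type 1 gave a median of 0.04. For 7 the groups did not overlap, all higher, against 3.14% of all genes, with Plagl1 among them and Begain, which passed the filter only through the biallelic group. Without biallelic 3, 7 were higher and 2 lower without overlap, against 7.0% and 9.45%. The lower ones were Ndn, a neuronal growth suppressor gene (-0.35 without biallelic 3, and -0.15 with it), and the tetraspanin gene Cd81 (-0.09, and 0.09 with it). Dlk1, a membrane ligand known to hold back fat cell differentiation, was at 1.55, 1.82 and 1.68 RPM in wild type and 5.84, 3.78 and 10.6 RPM in biallelic tongues. Each biallelic library is clearly above the narrow wild type range. Its log2 fold change was 1.88 (SE 0.34), and 1.49 without biallelic 3. Meg3, the noncoding RNA expressed from the other parental copy of the same cluster, was at 57.4, 71.9 and 62.4 RPM against 99.2, 73.8 and 132.4 RPM. Biallelic 2 barely clears wild type 2, and the log2 fold change of Meg3 was 0.64 (SE 0.21), or 0.43 without biallelic 3.

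Igf2, the fetal growth factor gene, was at 34.7, 40.2 and 47.8 RPM in wild type and 82.5, 51.0 and 164.1 RPM in biallelic tongues. Here too biallelic 2 lies just above the wild type range and biallelic 3 highest. The log2 fold change was 1.12 (SE 0.39), and 0.68 without biallelic 3. H19, the noncoding RNA that shares enhancers with Igf2, was at 524.3, 397.2 and 658.6 RPM against 583.8, 585.3 and 1692 RPM, so its groups overlap (0.69, SE 0.43, and 0.18 without biallelic 3). The zinc finger genes Zim1 (0.83) and Peg3 (0.42) of another cluster were also higher without overlap, and were at 0.40 and 0.19 without biallelic 3. Begain, which lies beside Dlk1, was at 0.676, 0.807 and 0.948 RPM against 1.01, 1.02 and 1.30 RPM (0.46). It was near the lower limit of measurement, with 31 reads in its poorest library, and the filter fixed its separation.

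Dlk1 did not differ as much before P20. Its log2 fold change was 0.10 at E13.5 and 0.26 at P0, and the joint fit gave a difference of 1.62 (SE 0.43) between P20 and P0, with an adjusted p of 1 in limma. For Igf2 the corresponding values were 0.22, 0.01 and 1.12 (SE 0.40). Slc7a10 was higher at all 3 stages, by 1.79 at E13.5, 1.47 at P0 and 2.12 at P20, and the P20 minus P0 difference was 0.65 (SE 0.53).

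Fibroblast genes were lower. Of 22 tested, 20 were lower on average in the biallelic group (median -0.29), as were 20 without biallelic 3 (median -0.43). The median was -0.16 without biallelic 1 and -0.19 without wild type 2. The groups did not overlap for 5, all lower, against 3.74% of all genes, and for 14 without biallelic 3, against 9.45%. Besides Thy1 these 5 were the matrix genes Dpt (-0.39) and Col14a1 (-0.36), Gsn, which encodes the actin severing protein gelsolin (-0.43), and the surface antigen gene Ly6a (-0.22). Gsn was at 399.9, 459.9 and 451.7 RPM in wild type and 321.1, 370.1 and 288.5 RPM in biallelic tongues, with all biallelic libraries below. S100a4, a calcium-binding protein gene of fibroblasts, overlapped (-0.63). Of 31 collagen genes 23 were lower (median -0.14, and -0.27 without biallelic 3, -0.06 without either biallelic 1 or wild type 2). Of 17 macrophage and leukocyte genes 13 were lower (median -0.14), and 16 without biallelic 3 (median -0.30), while without wild type 2 the median was -0.01.

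A pair of mitochondrial folate enzyme genes, Aldh1l2 and Mthfd1l, were lower within a mixed list. Aldh1l2, the mitochondrial formyltetrahydrofolate dehydrogenase, was at 8.90, 7.84 and 9.02 RPM in wild type and 6.43, 5.71 and 6.12 RPM in biallelic tongues. Mthfd1l, which releases formate, was at 8.16, 9.58 and 7.60 RPM against 5.72, 6.06 and 5.87 RPM. Both separate the genotypes with a small spread inside each group (-0.50, SE 0.10, and -0.52, SE 0.11) and gave -0.50 and -0.51 without biallelic 3. Other mitochondrial enzyme genes of the pathway overlapped, with Shmt2 at 0.02, Mthfd2l at 0.06 and Mthfd2 at -0.19. The proline synthesis gene Aldh18a1 (-0.37) and the serine synthesis gene Phgdh (-0.31, and -0.15 without biallelic 3) were lower without overlap, and Vldlr, a lipoprotein receptor gene, was higher (0.36). That makes 4 lower and 1 higher without overlap among 27, against 3.74% and 3.14% of all genes, or 6 and 5 without biallelic 3, against 9.45% and 7.0%. Over the 27 tested members of the list of serine, one-carbon and Atf4 target genes 16 were lower, with a median of -0.08, and 11 without biallelic 3 (median 0.03).

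Immediate early genes, which respond rapidly to stimuli and injury, depended on biallelic 3 in the other direction. The median of the 28 tested was 0.13 with 23 higher, and 0.38 with 27 higher without it, while without biallelic 1 it was -0.04. Fos was at 6.98, 8.38 and 10.0 RPM in wild type and 24.1, 20.6 and 6.12 RPM in biallelic tongues, with biallelic 3 below all wild type libraries. Nr4a1 (0.70), Nr4a3 (1.04), Klf2 (0.29) and Btg2 (0.41) were the other members of smallest p. With all 6 libraries every gene of the list had overlapping groups. Leaving out biallelic 3 gave 10 higher and 0 lower without overlap, against 7.0% and 9.45% of all genes.

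**Figure D5:**
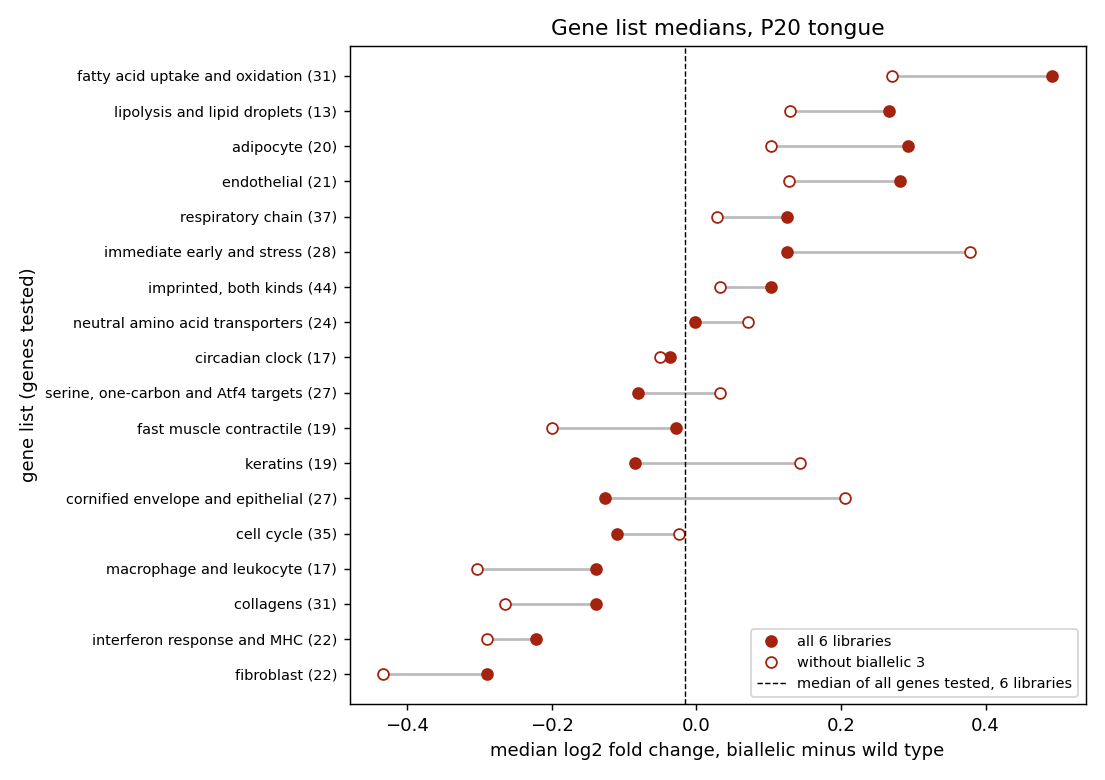
Median log2 fold change (biallelic minus wild type) of 18 gene lists at P20, with all 6 libraries (filled) and without biallelic 3 (open), and the number of genes tested in brackets. Fatty acid uptake and oxidation lies highest with all libraries at 0.49, fibroblast genes lie lowest, and the keratin and cornified envelope lists change sign when biallelic 3 is left out.

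Genes close to Plagl1 on chromosome 10 differed little at P20. Phactr2, which encodes a binding partner of protein phosphatase and actin (13207717 to 13474396, minus strand), was at 73.1, 74.8 and 73.4 RPM in wild type and 60.9, 63.3 and 59.9 RPM in biallelic tongues. Both groups are tight and do not overlap, with a log2 fold change of -0.27 (SE 0.08). It was -1.30 at P0 and -0.85 at E13.5, and the P20 minus P0 difference of 1.04 (SE 0.16) had a limma adjusted p of 0.0694. It was called with the filter at 5 RPM, with median centring or without wild type 2 of P0. The other tested genes within 1 Mb were Utrn (-0.00), Stx11 (-0.18), Sf3b5 (0.00), Ltv1 (-0.16), Fuca2 (-0.31), Pex3 (-0.06), Adat2 (-0.30), Aig1 (-0.16) and Hivep2 (-0.13), all with overlapping groups. Without biallelic 3 Stx11 and Ltv1 were at -0.01 and Fuca2 at -0.15.

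Across the 10929 genes that passed the filter at all 3 stages, limma called 0 (0.0%) for P20 minus P0, with 155 at an unadjusted p under 0.05, and 0 (0.0%) for P20 minus E13.5, with 388. The E13.5 RNA was extracted with another kit, so stage and kit cannot be told apart in levels, while genotype was compared within a stage.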

How the data were processed

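Reads were trimmed and aligned to GRCm38 with tools listed as Trim Galore 0.4.2 and TopHat2 2.1.0, per the submitters' processing notes. How reads were counted, and whether strand was used, is not stated in the sources used here, so a gene and its antisense partner may share reads. The authors deposited log2 RPM per gene, reads scaled to each library's read total without correction for gene length, with 0.9 reads in place of 0. The tables hold genes of the 19 numbered chromosomes. Whole reads were recovered from these steps (100% of nonzero values under 1000 reads lay within 0.05 of a read). No pair of libraries was a duplicate (smallest chi-square per degree of freedom 7.28).

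Genes reaching 1 RPM in 3 or more of the 6 libraries entered a linear model of log2 RPM in limma 3.58.1 (R 4.3.3) with a mean-variance trend, biallelic minus wild type, after the step was tested on simulated data. Adjustment was by Benjamini and Hochberg's method over all genes tested, with a threshold of 0.05. P-values measure only the spread between these libraries. The P20 effect was compared with those at P0 and E13.5 in 1 fit of 18 libraries. Where a gene had several rows, the row of higher mean was used.

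The genes, gene lists and rules were chosen with earlier results of these data known. Named genes are the Plag family, up to 15 higher and 15 lower of smallest p whose groups do not overlap, up to 5 of smallest p per list described, tested genes within 1 Mb of Plagl1, and genes of largest loading on the first principal component. Hadha, Cd36, Cpt1a, H19, Peg3, Zim1, Begain, Nr1d2, Hlf, Arntl, Npas2, Ly6a, Tie1, Sox7, Ndn, Cd81, Shmt2, Mthfd2, Mthfd2l and Myh3, where outside that rule, were named after their values were seen. Alternatives were limma-voom on whole reads, other filters (none, 5 RPM), log2(RPM + 1), median centring, quantile normalization, no trend, a robust trend, the replicate block and each library left out. Some genes that the rule takes are left out here, and list counts include them.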

Additional observations from a re-analysis of the deposited data

Results flagged for a closer look

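Phgdh, the first enzyme of serine synthesis, separated the genotypes in opposite directions at 2 stages. At P20 every biallelic library was lower (log2 fold change -0.31), and the smallest gap was between 6.36 RPM in biallelic 1 and 6.42 RPM in wild type 2. At P0 every biallelic library was higher (0.30), with 6.37, 5.12 and 4.69 RPM against 4.66, 4.39 and 4.01 RPM. The joint fit gave a P20 minus P0 difference of -0.61 (SE 0.21), with a limma adjusted p of 1.

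Slc38a2, the sodium-coupled transporter of small neutral amino acids, did so between P20 and E13.5. At P20 it was at 119.1, 131.7 and 120.0 RPM in wild type and 148.2, 165.8 and 136.8 RPM in biallelic tongues (0.28). At E13.5 it was at 54.8, 53.1 and 55.2 RPM against 49.1, 47.6 and 46.5 RPM (-0.19). The difference of 0.47 between these stages did not pass the threshold either.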

How the results depend on the processing

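At P20 limma called 0 genes under all 15 alternatives. For P20 minus P0 the count was 0, but 1 (Phactr2) with the filter at 5 RPM and 1 with median centring, and 0 to 1 when single libraries were left out (Phactr2 at 1.12 without wild type replicate 2 of P0); the cause was not tested. For P20 minus E13.5 it was 0 under all alternatives. Plagl1 ranged from 1.16 to 1.46, and Slc7a10 from 1.02 under log2(RPM + 1) to 2.87 under quantile normalization. Same-numbered libraries did not deviate together (correlations -0.31, -0.29 and -0.65), so the numbers were not taken to pair them; with the replicate block 0 genes were called and Plagl1 was 1.30.

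Of 99 genes 87 kept their direction under every alternative. Many of them were named for a small p or separate groups in these same libraries. Leaving out a library cannot reverse a gene with separate groups, so this count is partly fixed by the choice of genes. With single libraries left out, values ranged from -0.27 to 0.23 for Plag1, -0.21 to 0.21 for Plagl2, -0.131 to 0.0716 for Cpt1a, -0.0469 to 0.031 for Utrn, -0.066 to 0.0465 for Sf3b5, -0.172 to 0.0337 for Pex3, -0.227 to 0.151 for Sox7, -0.349 to 0.00205 for Ndn, -0.0938 to 0.191 for Cd81, -0.00286 to 0.0405 for Shmt2, -0.59 to 1.64 for Myh2 and -1.76 to 0.53 for Dsg4. Utrn was 0.000615 with limma-voom, 0.00238 with median centring and 0.0045 with quantile normalization, and Sf3b5 was -0.000391 under log2(RPM + 1). Without biallelic 3 the median changed sign in 13 of 41 lists. With single libraries left out, the median ranged from 0.27 to 0.68 for the fatty acid list, 0.13 to 0.42 for the endothelial list and -0.43 to -0.16 for the fibroblast list.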

Other observations

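Actc1 and Myh3, a pair of genes of developing muscle, varied widely within both genotypes. Actc1, the cardiac alpha-actin gene that immature skeletal muscle also uses, was at 68.9, 65.8 and 5.03 RPM in wild type and 8.06, 6.86 and 18.8 RPM in biallelic tongues. Wild type 1 and 2 were high and wild type 3 was below all biallelic libraries, so the groups overlap (log2 fold change -1.49, SE 0.997). Myh3, the embryonic myosin gene, was at 11.7, 5.18 and 7.78 RPM in wild type and 0.647, 2.58 and 5.19 RPM in biallelic tongues. Biallelic 3 matches wild type 2 and the other biallelic libraries are lower (log2 fold change -1.92, SE 0.715, and -2.59 without biallelic 3). Of the 14 tested slow and developmental contractile genes 9 were higher and 5 lower on average (median 0.01), and every one had overlapping groups. When biallelic 3 was left out, 4 were higher and 10 lower (median -0.06).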
